A study of Mus musculus with 6 samples.

Results

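Translation initiation factor genes were followed in liver RNA of mice given a deproteinized extract of calf blood (DECB). The set held every gene on the array whose current symbol begins with Eif and a digit from 1 to 6, without the eIF2 kinases (symbols beginning Eif2ak) and without the gene pair for the eIF2 gamma subunit (Eif2s3x and Eif2s3y). That gave 49 genes of the 20659 that could be named on the array. The rule reads gene symbols and no measured value. All 49 were kept by the filter on dim probes, which asked that 3 or more of the 6 arrays read a probe well above background, and 46 were so on all 6.

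The donors were male mice of the outbred ICR stock, weighing 18 to 22 g. Controls received saline and the DECB group received the extract, in both cases into the stomach, once a day for 35 days at 0.08 mL per 20 g of body weight. The labels describe 24 mice, 12 to a group, and 3 control arrays (controls 1, 2 and 3) and 3 DECB arrays (DECB 4, 5 and 6) were analysed here. The description line of the control arrays gives 1 day and that of the DECB arrays 30 days, at odds with the dosing period. The mice also took part in a timed test of hypoxia tolerance, and the labels do not say whether liver was taken before or after it. No label links an array to an individual animal, so the p-values measure the spread between these RNA samples, which may be technical.

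Initiation factors bring the ribosome to the start codon. eIF2 carries the initiator tRNA to the small subunit as a complex with GTP, and eIF2B reloads eIF2 with GTP after each round. When stress kinases phosphorylate the alpha subunit of eIF2, eIF2B is held back, most translation slows and a few mRNAs such as that of Atf4 are translated more. eIF3 is the large multi-subunit scaffold of the small ribosomal subunit. eIF4E binds the mRNA cap, eIF4G joins it to eIF3, and the helicase eIF4A with its helpers eIF4B and eIF4H unwinds the leader of the mRNA. The 4E-BPs bind eIF4E and keep eIF4G away until the kinase complex mTORC1 phosphorylates them. In liver this route follows insulin and amino acid supply. An mRNA array does not measure any of these phosphorylations.

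Brightness differed between arrays scanned at different times, and this bears on each value below. Arrays that share a scan start time in the file headers are called a slide here: control 1 and DECB 6 are slide 1, controls 2 and 3 and DECB 4 are slide 2, and DECB 5 is alone as slide 3. On slide 1 the 75th percentile of signal stood 3.75-fold and 4.04-fold over local background, and 25-fold to 30.6-fold over it elsewhere. Relative to that percentile, the mean of the slide 1 arrays lay above the mean of the others for 43 of the 49 genes (87.8%), with a median gap of 0.70 (log2). Over all genes tested this held for 57.9%, with a median gap of 0.22. For the genes described most closely, values within slides 1 and 2 are therefore given beside the fit over all 6 arrays, with those of a fit that takes slide as a block (the blocked fit). All 6 hepatocyte markers were measured, Alb among the brightest (8.95 to 9.37). The log2 of their summed signals, called the summed level here, was 10.8 to 10.9 in controls and 10.5 to 10.7 in DECB. Of 5 cholangiocyte markers 3 were measured, and their summed level was -0.65 to -0.14 in controls and 0.074 to 0.62 in DECB. Of 4 erythroid markers 2 were measured, with 4.52 to 5.15 in controls and 3.36 to 4.41 in DECB, so these lists did not overlap between groups. The 2 erythroid markers lay on opposite sides of 0, with differences of -1.73 for Hba-a1 (no overlap) and 0.88 for Alas2, which was higher within both slides, so their sum follows the brighter Hba-a1. The 3 measured cholangiocyte markers all lay above control, and their sum mainly follows the brightest, Sox9. Sox9 overlapped between groups (control 1 at -0.39, DECB 5 at -0.43), as did Spp1. Krt19 had no overlap but was well above background on 2 arrays of each group. The ranges of the groups overlapped for the Kupffer (5 of 6 markers measured), sinusoidal endothelial (5 of 5) and stellate (4 of 5) lists. For the leukocyte list (4 of 5) the summed level was 0.80 to 1.44 in controls and 1.20 to 1.97 in DECB. Its lowest DECB level was that of DECB 4, where Cd3e had no value and was left out of the sum. Whether this list overlapped between groups therefore cannot be judged. Within the leukocyte list the granulocyte markers S100a8 and S100a9 each differed by 1.57 with no overlap, and both were called higher in the blocked fit (adjusted p = 0.0309 and 0.0215). The endothelial marker Stab2 was called lower there (-1.05, adjusted p = 0.0463), while Pecam1 of that list lay above control (0.20). Within slides 1 and 2 the summed levels differed by -0.34 and -0.40 (endothelial), -0.58 and -0.65 (stellate) and -0.25 and -0.059 (Kupffer). Epcam and Krt7 of the cholangiocyte list were not kept. The part of these cell types in the results was not tested, and in bulk RNA fewer cells of a type and less RNA per cell cannot be told apart.

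No initiation factor gene passed the test over all 6 arrays. limma with Benjamini-Hochberg adjustment over 14805 genes called 0 of the 49 in either direction, against 0.209% of all genes called higher and 0.257% called lower, and the lowest adjusted p among the 49 was 0.431. At an unadjusted p under 0.05 there was 1 lower gene, Eif4ebp3, and 0 higher ones, against 5.79% and 4.22% of all genes. In DECB 29 of the 49 lay above control and 20 below, whereas 47.5% of all genes lay above and 52.5% below. The median difference of the 49 was 0.11 on the log2 scale, and that of all genes tested was -0.027. It was 0.062 within slide 1, 0.18 within slide 2 and 0.14 in the blocked fit, but -0.14 without DECB 6 and -0.295 with slide 2 left out. Without DECB 6 the differences of Eif1b, Eif2d, Eif2b5, Eif4e and Eif5a were 0.21, 0.27, 0.15, 0.071 and 0.04, and that of Eif4g1 turned to -0.059, each well under its value over all 6 arrays. Over all 6 arrays the differences ran from -1.12 (Eif1) to 0.62 (Eif3b). The DECB arrays lay wholly above the control arrays for 1 gene, Eif3b, and wholly below for 1, Eif4ebp1, whereas 7.24% and 9.4% of all genes had no overlap in those directions. Differences of at least 2-fold were seen for 2 members, Eif1 and Eif4ebp3, both lower, against 4.84% of all genes, and for 0 higher ones, against 3.87%.

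The blocked fit had narrower errors. The median SE of the 49 differences went from 0.39 to 0.17, and the 95% interval of the difference lay inside 2-fold in both directions for 12 genes over all arrays and for 36 with the block. DECB 5, alone on its slide, adds nothing to the blocked contrast, and 2 residual degrees of freedom remain. There limma called 1 gene, Eif1, lower and 0 higher, against 3.94% and 2.74% of all genes. At an unadjusted p under 0.05 it had 7 higher and 5 lower members, against 12.1% and 16.7% of all genes. The shares of the members, 14.3% and 10.2%, are close to or below that background. Within slide 1 and within slide 2 alike, 24 members (49%) were higher and 12 (24.5%) lower in DECB, where 28.6% and 36.6% of all genes were.

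**Figure D1:**
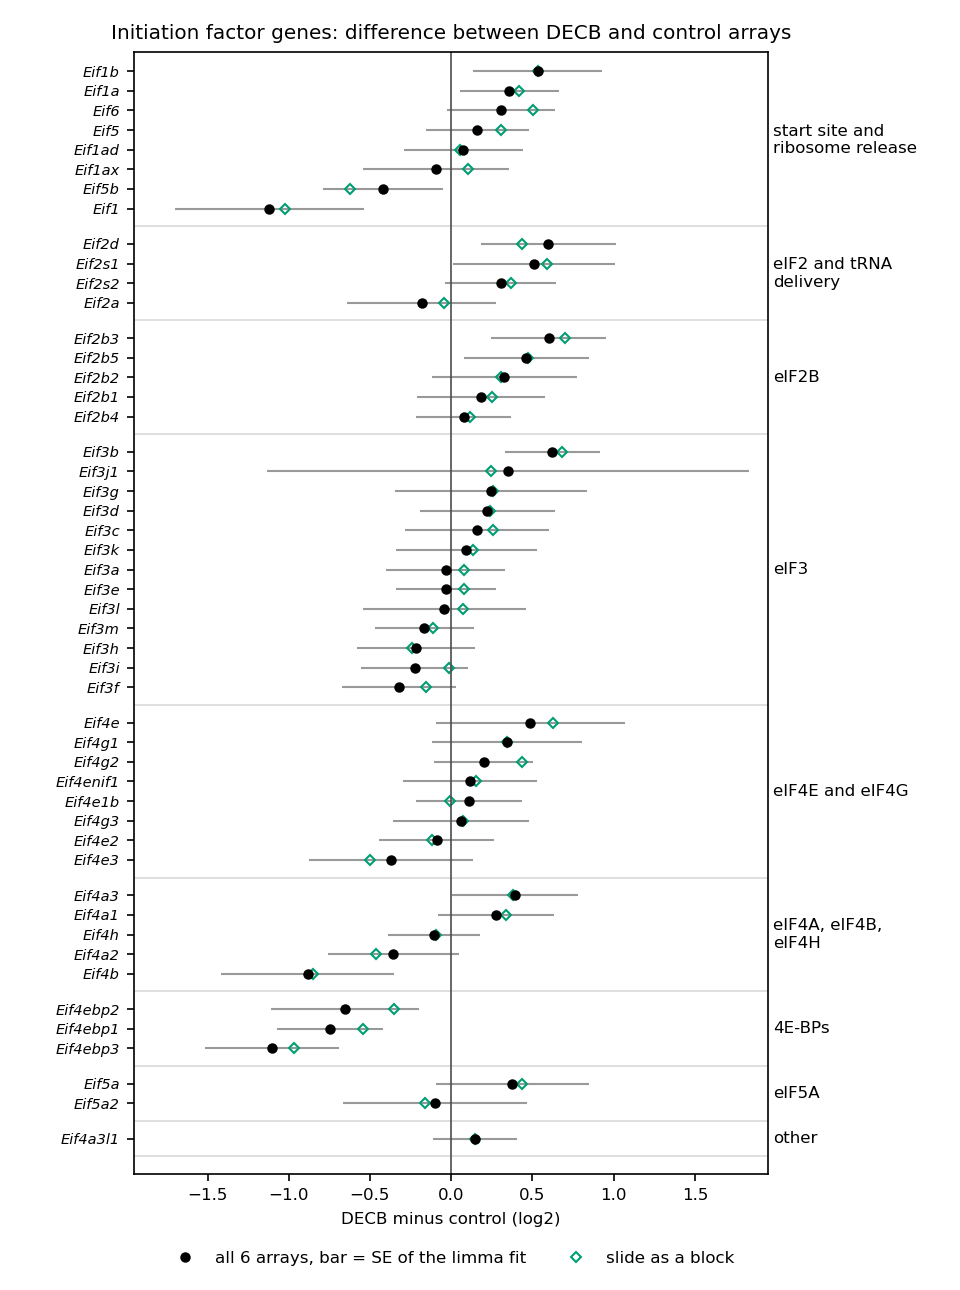
DECB minus control for the 49 genes, on the log2 scale along the horizontal axis, grouped by complex and ordered by size. Black points are limma differences over all 6 arrays with the SE as a bar, and green diamonds are the differences in the blocked fit. The 3 4E-BP genes, Eif1 and Eif4b lie farthest to the left, the 5 eIF2B genes all lie to the right of 0, and the bar of Eif3j1 is the widest.

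The 250 bases before the annotated start of 4 genes are printed because these genes stood at the ends of the range or alone within a family. Eif1 and Eif4b were among the lowest, Eif3b was the highest, and Eif4ebp2 was the 4E-BP whose sign depended on the slide. They come from RefSeq on GRCm38.p6, matched by symbol, as they were for 38 of the 49 members (Eif4ebp1 is among those not matched). Capitals mark matches to 6 motifs, searched on either strand. The GC box, bound by SP1-type factors, was searched as GGGCGG. The CCAAT box was searched by those 5 letters. The E-box of MYC and related factors was searched as CACGTG. The motif of ETS factors was searched as CCGGAAG. The NRF1 motif was searched as a palindrome of GCGC repeated after any 2 bases. The composite motif of ATF4 was searched as TGATGNAAN.
Eif1, chr11:100319699-100319948, plus strand: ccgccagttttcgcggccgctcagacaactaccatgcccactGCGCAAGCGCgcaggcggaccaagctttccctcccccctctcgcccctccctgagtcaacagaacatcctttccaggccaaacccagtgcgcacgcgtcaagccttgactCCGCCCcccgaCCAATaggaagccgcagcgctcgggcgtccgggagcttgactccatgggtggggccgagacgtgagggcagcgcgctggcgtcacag
Eif4b, chr15:102073523-102073772, plus strand: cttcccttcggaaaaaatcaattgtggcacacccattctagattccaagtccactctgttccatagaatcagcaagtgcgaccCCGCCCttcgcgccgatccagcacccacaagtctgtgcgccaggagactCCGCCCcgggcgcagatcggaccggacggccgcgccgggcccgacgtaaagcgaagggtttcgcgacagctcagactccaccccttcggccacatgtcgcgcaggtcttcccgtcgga
Eif4ebp2, chr10:61452670-61452919, minus strand: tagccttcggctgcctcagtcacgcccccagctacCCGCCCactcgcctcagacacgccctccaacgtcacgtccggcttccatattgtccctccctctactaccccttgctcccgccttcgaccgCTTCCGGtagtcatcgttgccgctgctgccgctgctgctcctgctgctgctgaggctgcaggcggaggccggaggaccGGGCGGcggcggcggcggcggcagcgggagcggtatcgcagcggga
Eif3b, chr5:140419055-140419304, plus strand: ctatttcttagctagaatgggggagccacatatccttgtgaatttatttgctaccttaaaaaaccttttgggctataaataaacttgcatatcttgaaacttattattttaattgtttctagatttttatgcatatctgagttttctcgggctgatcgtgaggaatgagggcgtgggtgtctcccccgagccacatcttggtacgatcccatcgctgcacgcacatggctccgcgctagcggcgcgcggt
The window of Eif1 held 1 GC box, 1 CCAAT box and 1 NRF1 motif, that of Eif4b 2 GC boxes, and that of Eif4ebp2 2 GC boxes and 1 ETS motif, none of these overlapping. The window of Eif3b held no match. Over the 50 listed promoters of the 38 matched members, 68% held a GC box, against 32.7% of all 32851 listed promoters of that length and 50.2% of those of tested genes. The shares were 22%, 6.02% and 7.68% for the E-box, 24%, 6.91% and 11.2% for the ETS motif, 20%, 4.98% and 8.55% for the NRF1 motif, and 26%, 33.8% and 34.9% for the CCAAT box. The ATF4 letters occurred in 0 of the 50 member windows, in 3.44% of all windows and in 2.34% of those of tested genes. Some members have several listed promoters, Eif5a among them, so windows of 1 gene can overlap. A match of letters is a description and not a binding site.

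Genes of tRNA delivery lay mostly above control without passing the test. Of the 4 genes of eIF2 and tRNA delivery 3 were above 0 and 1 below, with a median of 0.41 (0.27 on slide 1 and 0.31 on slide 2 taken alone, and 0.40 in the blocked fit). Without DECB 6 that median was 0.19 and with slide 2 left out 0.18. Eif2s1 encodes the alpha subunit of eIF2, the target of the stress kinases. Its signal, as log2 relative to the array's 75th percentile like all levels here, was 0.89, 1.91 and 1.93 on controls 1, 2 and 3 and 2.73, 2.34 and 1.18 on DECB 4, 5 and 6. DECB exceeded the controls of the same slide by 0.29 on slide 1 and 0.81 on slide 2, while the dim slide set the lowest value in each group. The means were 1.58 ± 0.60 in controls and 2.08 ± 0.81 in DECB (SD, n = 3), a difference of 0.51 (SE 0.50, limma adjusted p = 0.897), and 0.59 in the blocked fit (adjusted p = 0.13). Without control 1 it was 0.17, without DECB 4 0.19 and without DECB 6 0.96. A second Eif2s1 probe differed by 0.29. For Eif2s2, the beta subunit, the brighter probe gave 0.30 (SE 0.34), with values overlapping between groups. Its second probe read 1.32, 0.75 and 0.45 on controls 1, 2 and 3 and 1.62, 1.79 and 2.50 on DECB 4, 5 and 6, with all DECB arrays above all controls and a difference of 1.13. That probe was singled out after its values were seen and was not tested. Eif2d, which can place tRNA on the ribosome without GTP, differed by 0.60 (SE 0.42, adjusted p = 0.779) and was higher within both slides. Eif2a, an alternative carrier of initiator tRNA that is no subunit of eIF2, differed by -0.18.

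All 5 eIF2B genes lay above control over all 6 arrays, and none passed. Their median difference was 0.33 (0.49 and 0.28 on slides 1 and 2 taken alone, and 0.31 in the blocked fit), and with 1 array left out it ran from 0.15 without DECB 6 to 0.63 without control 1. With slide 2 left out that median was 0.099. The direction was not stable for every gene. Eif2b1 and Eif2b2 turned to -0.14 and -0.056 without DECB 6, and Eif2b4 fell below 0 without control 1 and without DECB 4. Eif2b3, the gamma subunit of the exchange factor, had the largest difference of the 5. Its values were -1.31, -1.97 and -2.12 on controls 1, 2 and 3 and -1.18, -1.60 and -0.82 on DECB 4, 5 and 6. On slides 1 and 2 the DECB array exceeded the controls of the same slide, but DECB 5 lay below control 1. The difference was 0.60 (SE 0.35, adjusted p = 0.694), and 0.70 in the blocked fit (adjusted p = 0.0834). A second probe differed by 0.70 with DECB 4, 5 and 6 at -1.16, -1.58 and -1.24 and controls at -2.13, -1.97 and -1.99, so there the groups did not overlap. Eif2b5 encodes the catalytic epsilon subunit. It read 0.48, -0.26 and -0.18 on controls 1, 2 and 3 and 0.14, 0.18 and 1.099 on DECB 4, 5 and 6, again higher in DECB within each slide, a difference of 0.46 (SE 0.38, limma adjusted p = 0.845). Eif2b2 and Eif2b1, the beta and alpha subunits, differed by 0.33 and 0.18 and were higher within both slides. Eif2b4, the delta subunit, differed by 0.079 and was lower within slide 1 (-0.10) and higher within slide 2 (0.28).

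The start-site and ribosome release group split in direction. Of its 8 genes 5 lay above 0 and 3 below, with a median of 0.12. With 1 array left out that median ran from -0.051 (without DECB 6) to 0.32 (without control 1), and it was -0.039 without control 3. Eif1, which keeps the scanning ribosome open until a start codon is met, had the largest negative difference of the 49. Its values were 6.79, 5.35 and 5.30 on controls 1, 2 and 3 and 4.36, 4.04 and 5.69 on DECB 4, 5 and 6. Within each slide the DECB array was the lower, with differences of -1.10 on slide 1 and -0.97 on slide 2, but DECB 6 stood above controls 2 and 3 and the groups overlapped. The means were 5.82 ± 0.85 in controls and 4.70 ± 0.88 in DECB (SD, n = 3), a difference of -1.12 (SE 0.58, limma adjusted p = 0.624). That difference was -0.63 without control 1 and -1.62 without DECB 6. In the blocked fit the gene was called lower, with a difference of -1.03 (SE 0.15, limma adjusted p = 0.0347), a 95% interval of -1.42 to -0.63. Its other probe read 3.49, 5.62 and 5.58 on controls 1, 2 and 3 and 5.01, 5.02 and 2.51 on DECB 4, 5 and 6, with differences of -0.98 within slide 1 and -0.59 within slide 2. On that probe slide 1 was the dim slide and on the brighter probe it was the bright one. Eif1b, the close paralogue of Eif1, lay above control, at 1.92, 1.13 and 1.14 on controls 1, 2 and 3 and 1.58, 1.64 and 2.57 on DECB 4, 5 and 6, a difference of 0.53 (SE 0.40, adjusted p = 0.805) that was positive within both slides (0.65 and 0.45). Signal from such paralogues can cross between probes, and how specific each probe is was not tested.

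The other genes of this group showed smaller differences at their brightest probes. Eif6, which keeps the large ribosomal subunit from joining too early, differed by 0.31 and 0.30 at its 2 probes. At the brighter one the difference was 0.21 within slide 1 and 0.72 within slide 2. Eif5, which triggers GTP hydrolysis on eIF2, differed by 0.16 at its brighter probe and by -0.36 at the other. The eIF1A genes Eif1a and Eif1ax, which steady the scanning ribosome, differed by 0.36 and -0.094. Eif1ad, an eIF1A-like gene, differed by 0.074 at its brighter probe. Its other probe differed by 0.68, with 0.82 within slide 1 and 0.44 within slide 2, and averaging the probes gave 0.38. Eif5b, the GTPase of subunit joining, was read by 1 dim probe that was well above background on 2 control arrays and 1 DECB array, so its difference of -0.42 rests on signals near background.

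The eIF3 subunits were centred near 0. Of 14 listed genes 13 had a named probe, 6 lay above 0 and 7 below, and their median was -0.033, but 0.044 within slide 1, 0.14 within slide 2 and 0.081 in the blocked fit. Without DECB 6 it was -0.27 and without DECB 5 it was 0.18. Eif3b, a core subunit that holds the scaffold together, was the one subunit of the 13 with no overlap between groups. Of all genes 7.24% had no overlap in that direction, so 1 of 13 is near that background. It read 1.76, 1.40 and 1.26 on controls 1, 2 and 3 and 2.09, 1.85 and 2.35 on DECB 4, 5 and 6. All 3 DECB arrays lay above all 3 controls, DECB 5 being the nearest to them. The means were 1.48 ± 0.25 in controls and 2.10 ± 0.25 in DECB (SD, n = 3), a difference of 0.62 (SE 0.29, limma adjusted p = 0.559), and 0.68 in the blocked fit (adjusted p = 0.0719). Of the other large core subunits Eif3a differed by -0.033 (95% interval -0.90 to 0.83) and Eif3c, at its brighter probe, by 0.16 (-0.89 to 1.21). A second Eif3c probe differed by 0.45, with 0.56 within slide 1 and 0.34 within slide 2. Whether Eif3a or Eif3c differs from Eif3b was not tested. Eif3f, Eif3h and Eif3i differed by -0.32, -0.22 and -0.22, and Eif3m by -0.16, of which Eif3f and Eif3h were lower within both slides. Eif3d, which can itself bind some mRNA caps, and Eif3g differed by 0.22 and 0.25 and were higher within both slides. Eif3k, Eif3l and Eif3e differed by 0.093, -0.042 and -0.034. Eif3e was lower within slide 1 (-0.49) and higher within slide 2 (0.50).

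Eif3j1, a loosely attached subunit, carried the largest error of the 49. Its brighter probe read -0.55, 3.78 and 3.60 on controls 1, 2 and 3 and 3.74, 4.18 and -0.051 on DECB 4, 5 and 6, so that the slide 1 arrays lay about 4 log2 units under the rest in both groups, with a mean gap of -4.13. The difference over all arrays was 0.35 with an SE of 1.48, and in the blocked fit it was 0.24 with an SE of 0.19. A second probe read from 1.29 to 1.76 over the 6 arrays and differed by 0.065, with no such gap. The mouse has a closely related copy, Eif3j2, for which no probe was named.

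**Figure D2:**
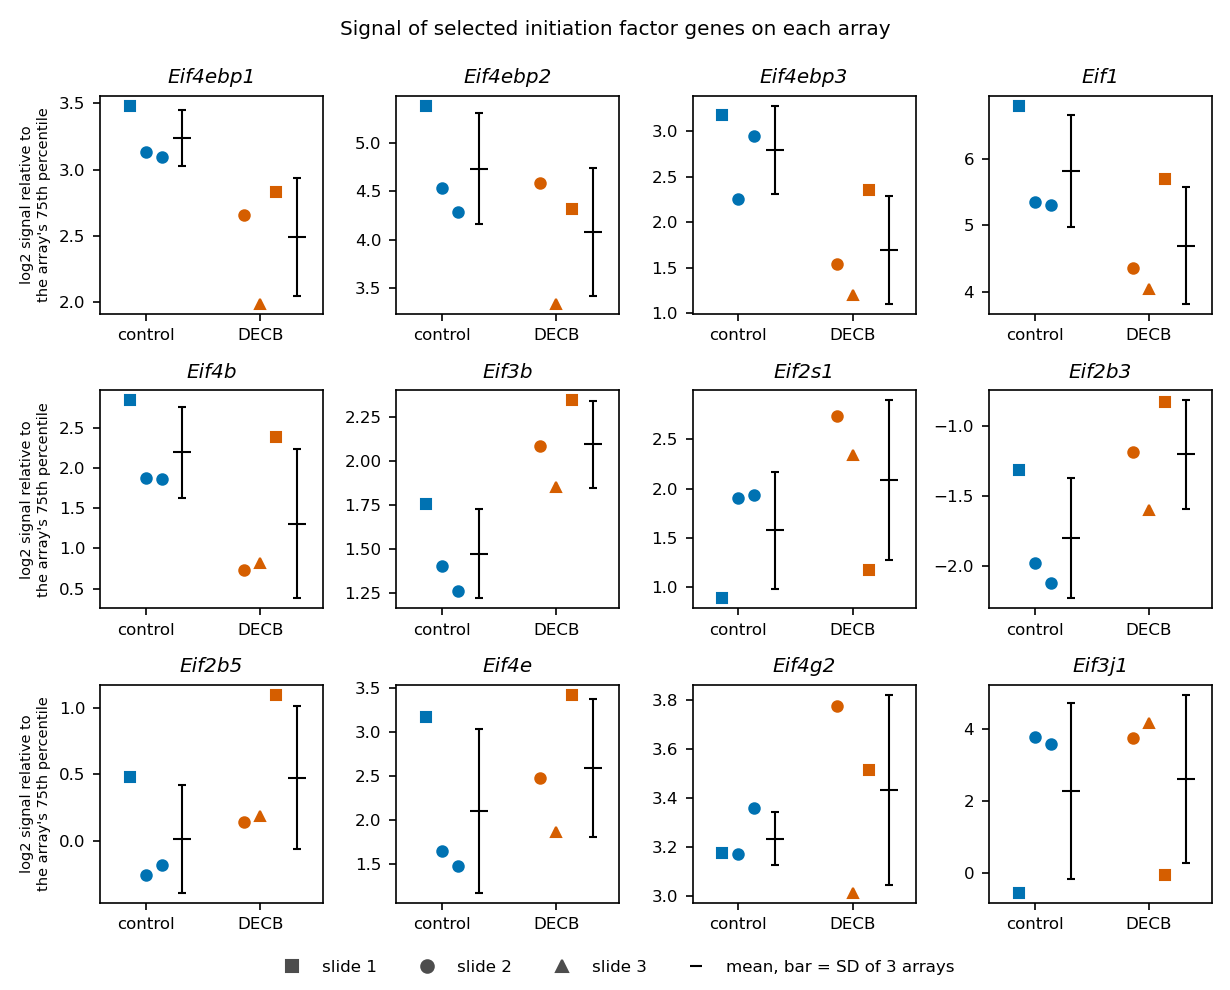
Log2 signal relative to each array's 75th percentile (vertical axes, one scale per panel) for 12 members on the 3 control and 3 DECB arrays. Squares, circles and triangles mark slides 1, 2 and 3, and the bar beside each group is the mean with the SD of 3 arrays. The groups are apart for Eif4ebp1 and Eif3b, DECB lies below control within slides 1 and 2 for Eif1 and Eif4b, and Eif3j1 separates by slide and not by group.

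The eIF4E binding proteins were the one group of at least 3 genes with all members below control. Their median was -0.75 (-0.83 on slide 1, -0.46 on slide 2 and -0.54 in the blocked fit), and over the fits with 1 array left out it ran from -0.50 without DECB 5 to -0.92 without DECB 6. Eif4ebp1 encodes the best studied of these inhibitors of cap binding. Its values were 3.48, 3.13 and 3.10 on controls 1, 2 and 3 and 2.66, 1.99 and 2.83 on DECB 4, 5 and 6. Each DECB array lay under each control, with DECB 5 the lowest. The means were 3.24 ± 0.21 in controls and 2.49 ± 0.45 in DECB (SD, n = 3), a difference of -0.75 (SE 0.33, limma adjusted p = 0.52), or a 1.68-fold lower signal. It was -0.65 within slide 1, -0.46 within slide 2, -0.54 in the blocked fit (adjusted p = 0.106) and -0.50 without DECB 5. Eif4ebp3 had the larger difference and the smallest p of the 49. It read 3.19, 2.26 and 2.96 on controls 1, 2 and 3 and 1.54, 1.20 and 2.36 on DECB 4, 5 and 6. DECB 6 lay just above control 2, which is the only overlap. The means were 2.80 ± 0.48 in controls and 1.70 ± 0.60 in DECB (SD, n = 3), a difference of -1.10 (SE 0.41, limma adjusted p = 0.431), and -0.97 in the blocked fit (adjusted p = 0.0971). It differed by -0.83 within slide 1 and -1.07 within slide 2. Eif4ebp2 differed in sign between slides. Its values were 5.38, 4.54 and 4.28 on controls 1, 2 and 3 and 4.59, 3.33 and 4.31 on DECB 4, 5 and 6. DECB minus control was -1.07 on slide 1 and 0.18 on slide 2, and over all arrays it was -0.65 (SE 0.45, limma adjusted p = 0.776). The blocked difference was -0.35 (SE 0.33, adjusted p = 0.522), and it was -0.28 without DECB 5 and -0.33 without control 1. Each of these genes was read by 1 probe.

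Of the 8 cap-binding and scaffold genes 6 lay above 0 and 2 below, with differences from -0.37 to 0.49 and a median of 0.11. That median was 0.096 on slide 1 and 0.22 on slide 2 taken alone, and 0.11 in the blocked fit. The median was 0.006 without DECB 6, 0.26 without DECB 5 and -0.16 with slide 2 left out. Eif4e itself, the cap-binding protein that the 4E-BPs hold, read 3.17, 1.65 and 1.48 on controls 1, 2 and 3 and 2.48, 1.86 and 3.42 on DECB 4, 5 and 6. Within each slide the DECB array was the higher, by 0.25 and 0.91, while slide 1 was above the rest in both groups. The difference was 0.49 (SE 0.58, adjusted p = 0.943), and 0.63 in the blocked fit (adjusted p = 0.144). Eif4g1, the main scaffold, differed by 0.34 (SE 0.46) and was higher within both slides. Eif4g2, a scaffold without the eIF4E site, read 3.17, 3.17 and 3.36 on controls 1, 2 and 3 and 3.77, 3.01 and 3.51 on DECB 4, 5 and 6. DECB 4 and DECB 6 were above all controls and DECB 5 below them. It differed by 0.20 over all arrays and by 0.44 in the blocked fit (adjusted p = 0.162). Eif4g3 and Eif4enif1, which carries eIF4E into the nucleus and to RNA granules, differed by 0.061 and 0.11. Eif4e2, a cap-binding protein that represses translation, differed by -0.09. The dim genes Eif4e3 and Eif4e1b were well above background on 2 arrays of each group and differed by -0.37 and 0.11.

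In the helicase group 2 genes lay above 0 and 3 below, with a median of -0.11. That median turned to 0.017 without control 1 and to 0.028 with quantile normalization, and it was -0.24 without DECB 6. Eif4b, the helper that stimulates eIF4A and is a target of S6 kinase, had the lowest difference of the 5. Its brighter probe read 2.84, 1.88 and 1.86 on controls 1, 2 and 3 and 0.73, 0.82 and 2.38 on DECB 4, 5 and 6. DECB minus control was -0.46 on slide 1 and -1.14 on slide 2, and DECB 6 still exceeded controls 2 and 3. The means were 2.19 ± 0.56 in controls and 1.31 ± 0.93 in DECB (SD, n = 3), a difference of -0.88 (SE 0.53, limma adjusted p = 0.707), and -0.85 in the blocked fit (adjusted p = 0.0844). It was -0.56 without control 1 and -1.42 without DECB 6. The second kept probe read 0.93, 0.72 and 0.83 on controls 1, 2 and 3 and 0.021, -0.14 and -0.075 on DECB 4, 5 and 6, where every DECB array was under every control and the difference was -0.89. That both probes lay lower was noticed after the values were seen. Averaging the kept probes gave -0.89 with an adjusted p of 0.411. Eif4a1 and Eif4a2, closely related forms of the helicase, differed by 0.27 and -0.36, each with the same sign within both slides at the brighter probe, and whether they differ from each other was not tested. Eif4h differed by -0.11 with a 95% interval of -0.77 to 0.56. Eif4a3, a core protein of the exon junction complex, and its intronless relative Eif4a3l1 differed by 0.39 and 0.15.

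eIF5A helps the ribosome through difficult peptide bonds. Eif5a read 3.82, 2.58 and 2.61 on controls 1, 2 and 3 and 3.19, 2.90 and 4.05 on DECB 4, 5 and 6, a difference of 0.38 (SE 0.47, adjusted p = 0.951) and of 0.44 in the blocked fit, higher within both slides. Eif5a2, its tissue-restricted form, differed by -0.10 and was lower within both slides.

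**Figure D3:**
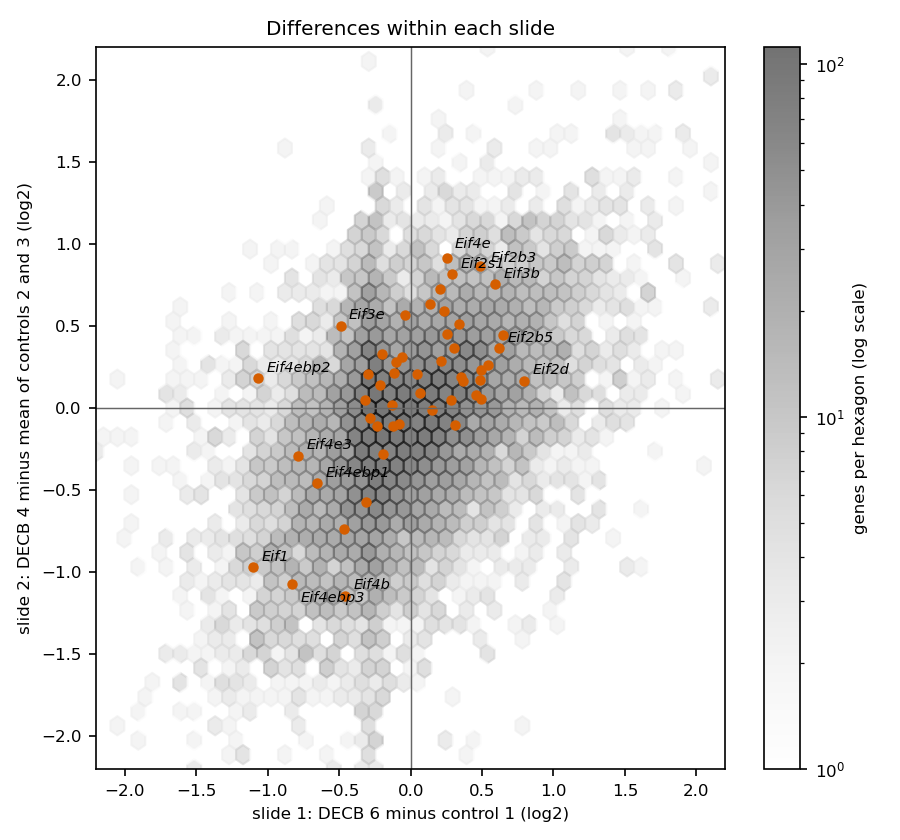
Differences within slide 1 (horizontal, DECB 6 minus control 1) against differences within slide 2 (vertical, DECB 4 minus the mean of controls 2 and 3), both log2. Grey hexagons count all genes inside the plotted range on a log scale, and orange points are the 49 members. Of the members 24 lie in the upper right and 12 in the lower left, with Eif1, Eif4ebp3 and Eif4b lowest and Eif4ebp2 on opposite sides of 0 in the 2 slides.

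**Figure D4:**
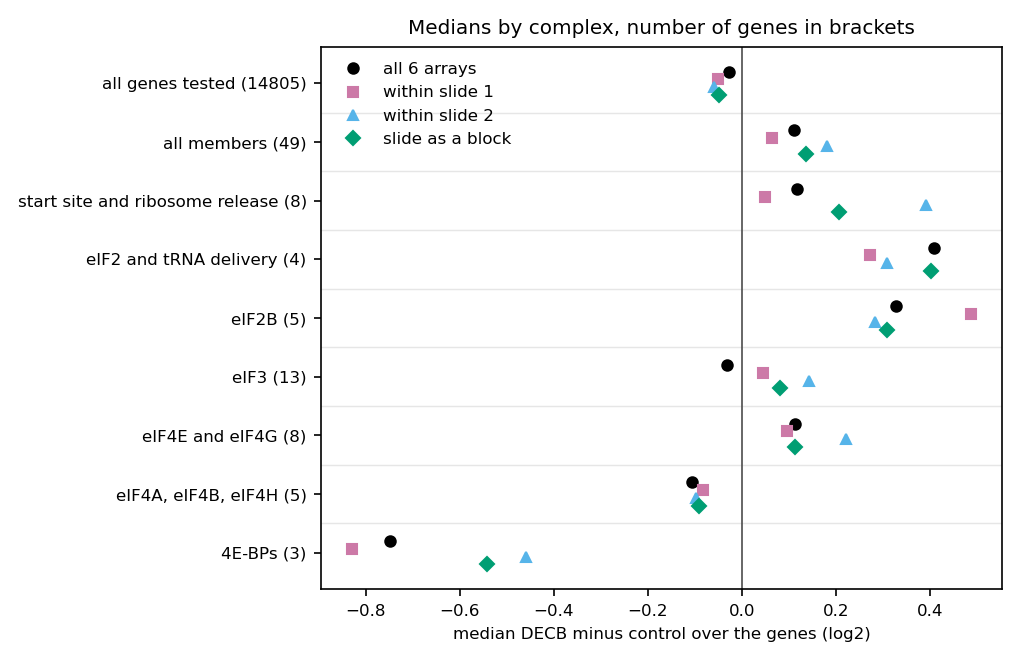
Median difference between DECB and control (horizontal, log2) for all genes tested, all members and each complex with at least 3 measured genes, over all 6 arrays, in slides 1 and 2 taken alone, and from the blocked fit. The medians of all members, the start-site group, eIF2, eIF2B and the cap-binding group are above 0 in all 4 settings. Those of all genes tested, the helicase group and the 4E-BPs are below 0 in all 4, and that of eIF3 changes sign.

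Genes that act on these factors were counted from 8 lists with 59 genes, of which 56 were tested. None passed over all arrays (limma), while 4 were higher and 4 lower at an unadjusted p under 0.05, and in the blocked fit 1 was called higher and 1 lower. Of all genes, 4.22% were higher and 5.79% lower at the unadjusted threshold, and 2.74% and 3.94% were called in the blocked fit. As a share, 4 of 56 lies above both unadjusted figures, and 1 of 56 lies below both blocked ones. Of the 56, 7 had no overlap between groups with DECB higher and 4 with DECB lower. Over all genes those shares were 7.24% and 9.4%. The differences in shares were not tested. The 4 eIF2 kinases split evenly about 0, with a median of 0.01. Among them Eif2ak3, the kinase of the endoplasmic reticulum, differed by 0.19 and Eif2ak2, which senses double-stranded RNA, by 0.52 (1.51 and 0.012 within slides 1 and 2). Eif2ak2 was dim, at -3.46 on control 1, and was well above background on 2 control arrays and 3 DECB arrays. Of 5 eIF2 phosphatase genes 4 lay below 0. Ppp1cc, a catalytic subunit, read 3.88, 3.44 and 3.44 on controls 1, 2 and 3 and 2.85, 2.37 and 2.82 on DECB 4, 5 and 6, with no overlap and a difference of -0.91 (SE 0.30, adjusted p = 0.34). It was -1.06 within slide 1, -0.59 within slide 2 and -0.79 in the blocked fit (adjusted p = 0.072).

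The ATF4 branch downstream of eIF2 split in direction. Of 12 listed genes 10 were tested, 6 above 0 and 4 below. Atf3, a stress-induced transcription factor, read -1.64, -3.68 and -3.40 on controls 1, 2 and 3 and -1.19, -1.26 and -0.52 on DECB 4, 5 and 6, a difference of 1.92 (SE 0.57, adjusted p = 0.273), and was called higher in the blocked fit (adjusted p = 0.0469). Its probe was well above background on 2 control arrays and 3 DECB arrays, so the size of that difference rests in part on signals near background. Chac1, a glutathione-degrading enzyme, read 2.28, 1.42 and 1.08 on controls 1, 2 and 3 and -0.50, -0.74 and -0.28 on DECB 4, 5 and 6, a difference of -2.10 (SE 0.38, adjusted p = 0.083), and was called lower in the blocked fit (adjusted p = 0.0286). Neither gene overlapped between groups. Vldlr, a lipoprotein receptor gene, differed by -1.59 (adjusted p = 0.24) and had no overlap. Atf4 itself differed by 0.54 with an SE of 0.75.

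On the mTORC1 side 11 of 12 genes were tested, 4 above 0 and 7 below. Mtor, the kinase itself, read -0.12, -0.26 and 0.065 on controls 1, 2 and 3 and -0.96, -0.85 and -0.77 on DECB 4, 5 and 6, with no overlap, a difference of -0.76 (SE 0.26, adjusted p = 0.376). It was -0.65 within slide 1, -0.86 within slide 2 and -0.77 in the blocked fit (adjusted p = 0.0746). The other 10 tested genes of the list all overlapped between groups. Of all genes 9.4% had no overlap in the lower direction, so 1 of 11 is near that background. Mknk2, a kinase of eIF4E, differed by -0.68 and Pdcd4, an inhibitor of eIF4A, by 0.76. Of the 5 poly(A) binding genes 2 lay above 0. Paip2b, an inhibitor of the poly(A) binding protein, differed by 0.71 (adjusted p = 0.529) with no overlap, and Pabpc1 by -0.40.

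Among 8 further initiation helpers 7 lay above 0. Dhx29, a helicase for structured leaders, read -1.14, -1.75 and -1.88 on controls 1, 2 and 3 and -0.48, -0.46 and -0.75 on DECB 4, 5 and 6, with no overlap, a difference of 1.03 (SE 0.31, adjusted p = 0.285). It was 0.39 within slide 1, 1.33 within slide 2 and 0.93 in the blocked fit (adjusted p = 0.105). Mcts2, a re-initiation factor, differed by 0.59 (adjusted p = 0.499) with no overlap. Of 10 elongation and release genes 6 lay above 0. Eef1e1, a scaffold of tRNA synthetases despite its elongation factor name, read -0.53, -0.92 and -0.54 on controls 1, 2 and 3 and 0.12, -0.054 and 0.51 on DECB 4, 5 and 6, with no overlap, a difference of 0.86 (SE 0.29, adjusted p = 0.374). It was 1.04 within slide 1, 0.86 within slide 2 and 0.94 in the blocked fit (adjusted p = 0.058).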

How the data were processed

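Each deposited array file is the output of Agilent Feature Extraction 11.0.1.1 for 1 single-colour (Cy3) array, per the file headers and the submitters' processing notes. Per the file headers, the intensity used (the processed signal) had the local background removed and a spatial trend taken out, and arrays were not scaled to each other. The series' value table holds log2 values as deposited by the authors, and no label tells what steps led to it. Its columns share a median of 5.35 over non-control probes, and after centring each probe their ranks correlated with their own arrays by -0.0697 to 0.0793, so it was left out of all comparisons, and its scale, centring and direction stay unknown. Control spots (1377) and spots marked as outliers (164 to 322 an array) were dropped and no spot was saturated. Each log2 signal was set against its array's 75th percentile over 43020 spots. Probes well above background on 3 or more arrays were kept (25418 of 39429). Gene names came from RefSeq accessions in a GRCm38.p6 table (27234 of 28684 matched). The brightest probe stood for a gene, and 17 members had more than 1 kept probe, 4 of them with opposite signs (Eif3k, Eif3m, Eif4e2 and Eif5). R 4.3.3 and limma 3.58.1 (lmFit, eBayes, two-sided, Benjamini-Hochberg over all genes tested) gave differences as DECB minus control; intervals are 95% and unadjusted. With 3 arrays a group an exact permutation test cannot go below 0.1, and the number of arrays limits precision. Titles gave the groups. Every member could be named, and genes of the 8 pathway lists where their p was under 0.05, or else the 2 of smallest p in a list; Atf4, the single cell type markers and the 12 plotted members were picked after their values were seen. The members and lists were chosen with earlier results of these data known. Alternatives covered background correction, scaling, dim-probe filter, probe rule, variance trend, slide, arrays left out and averaging the 2 closest controls.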

Additional observations from a re-analysis of the deposited data

How the results depend on the processing

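In every alternative with a test limma called 0 members higher, and 0 lower except with slide as a block, where 1 (Eif1, adjusted p = 0.0347) was called lower. Over all genes the count went from 69 to 988 with that block, 39 with quantile normalization, 32 with slide 2 left out, 2 with controls 2 and 3 averaged, 0 without the dim-probe filter (1257 at an unadjusted p under 0.05) and 0 to 53 in limma fits with 1 array left out (853 to 2119). With slide 2 left out, which leaves 1 control that is assumed to vary like the DECB arrays, the median of the members was -0.295, that of the start-site group -0.26, that of eIF3 -0.47 and that of the 4E-BPs -1.41; the cause was not tested. With 1 array left out the median of the members ran from -0.14 to 0.25. Eif1, Eif4b, Eif4ebp1, Eif4ebp3, Eif3b, Eif2s1, Eif2b3 and Eif2b5 kept their sign in all 19 alternatives, and Eif4ebp2 in 18. So did Eif1b, Eif2d, Eif3f, Eif4a2, Eif4a3, Eif4a3l1 and Eif4g2 in all 19, and Eif5b in all 18 that gave it a value. Some alternatives cannot change a sign, such as the variance trend, which leaves each difference as it was. The leave-one-out fits without DECB 5 and with slide 3 left out are the same fit. No paired analysis was possible because the sample titles share no number between the groups; the block and the within-slide values match arrays by scan time alone. The 3 arrays a group and the dim slide 1 limit what could be detected: 12 of the 49 intervals over all arrays lay inside 2-fold.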

Other observations

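Some members were read by probes that differed in the gap between slide 1 and the other slides, and some members lay lower on slide 1. For Eif1 the mean of the slide 1 arrays stood 1.48 above the other slides at the brighter probe, whereas the other probe read 3.49 and 2.51 on slide 1 and 5.01 to 5.62 elsewhere. For Eif3j1 slide 1 minus the other slides was -4.13 at the brighter probe, with no such gap at the other. For Eif2s1 (brighter probe), Eif5a2 and Eif4e3 it was -1.20, -1.42 and -1.19, while 43 of the 49 genes lay higher on slide 1. Eif5a2 and Eif4e3 were each read by 1 probe. For Eif1 and Eif2s1 the difference between DECB and control within a slide nevertheless had the same sign at both probes and on both slides.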
